A study of Mus musculus with 6 samples.

Results

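The genes described here are 10 transcripts that carry hemoglobin, heme, and iron through tissue: the adult α globins Hba-a1 and Hba-a2, the adult β globins Hbb-bs and Hbb-bt, the erythroid enzyme Alas2, and Hmox1, Slc40a1, Tfrc, Hp, and Slc11a2. They were chosen by name, with earlier results of these data known. They are 10 of the 27546 genes listed in the deposited table, and all 10 were among the 14657 genes with enough signal to be tested. RNA was sequenced from distal colon of 3 Gm31629-/- mice and 3 WT mice, with 1 library per mouse. The Gm31629-/- mice carry a whole-body deletion at the long noncoding RNA gene Gm31629 on chromosome 1, the WT mice were littermates, and the strain is given as C57BL/6 in the labels and C57BL/6J in the methods. All 6 mice were 8 weeks old, drank water with 3% DSS (dextran sulfate sodium, which injures the colonic epithelium) for 7 days, and were sacrificed on day 8. No untreated mice were included, so every value below is a level under colitis, a condition scored in part by blood in the stool. The study's methods speak of pooled RNA, whereas the table holds 1 column for each mouse, and the 6 columns were treated as separate mice.

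Hemoglobin is a tetramer of α and β chains, each holding 1 heme, and mature mouse red cells lack a nucleus but retain globin RNA for a time as reticulocytes. Iron enters cells on transferrin through the transferrin receptor Tfrc or as ferrous ions through the transporter Slc11a2 (DMT1), and leaves them through ferroportin, Slc40a1. Heme released from damaged red cells is opened by heme oxygenase Hmox1 to biliverdin, carbon monoxide, and iron, and free hemoglobin is bound by haptoglobin, Hp. In the intestine the same proteins serve absorption in the epithelium and recycling in macrophages.

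Values are in FPKM, fragments per kilobase of gene, scaled to library depth, so levels can be compared between genes as well as between mice. Differences are given as a log2 fold change of FPKM + 1, Gm31629-/- minus WT, with its SE and the Benjamini-Hochberg adjusted p of limma over all tested genes. Genes called higher or lower had an adjusted p under 0.05 and changed by more than 1 on the log2 scale. With 3 mice against 3, an exact permutation test of a single gene cannot go below p = 0.1, so no such p is given. The recovered depth was 18005300 to 18794800 fragments per library, and values above 0 were listed for 22456 to 23600 genes in Gm31629-/- mice and for 19938 to 20118 in WT mice. Gm31629-/- mouse 1 stood apart by sex-linked transcripts. Xist was at 0.00606 FPKM in it and at 8.35 to 13.8 in the other 5 mice. Ddx3y was at 9.27 FPKM in it and listed at 0 in the others. The methods describe male mice, so by these transcripts the other 5 mice depart from the methods and mouse 1 does not. Values without Gm31629-/- mouse 1, which differed from the rest, are given where they change a call.

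The globin sequences come first because they limit what each globin value can mean. The coding sequences of Hba-a1 (ENSMUSG00000069919, chr11:32283511-32284465, plus strand) and Hba-a2 (ENSMUSG00000069917, chr11:32296489-32297298, plus strand) are 429 bases long and differ at 1 position, C381T, counted from the A of the start codon with the Hba-a1 base first. Those of Hbb-bs (ENSMUSG00000052305, chr7:103826534-103828096, minus strand) and Hbb-bt (ENSMUSG00000073940, chr7:103812524-103813996, minus strand) are 444 bases long and also differ once, C417T, with the Hbb-bs base first. The 31 bases around each position are shown for the transcripts of GENCODE M21 (GRCm38), 5′ to 3′, with the differing base in capitals. They lie at chr11:32284328-32284358, chr11:32297145-32297175, chr7:103826677-103826707, and chr7:103812668-103812698 in turn.
Hba-a1: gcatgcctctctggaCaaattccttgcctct
Hba-a2: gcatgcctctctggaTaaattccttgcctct
Hbb-bs: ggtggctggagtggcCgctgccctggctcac
Hbb-bt: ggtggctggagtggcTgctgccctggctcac

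The whole transcripts, coding part included, were also compared. Of all 100-base windows along the transcript, 43.5% for Hba-a1, 25.5% for Hba-a2, 37.4% for Hbb-bs, and 45.2% for Hbb-bt did not occur in the paired copy. Windows that span the coding difference are among these. The annotated transcripts also differ in length, at 699 bases for Hba-a1 and 554 for Hba-a2. The shares therefore do not measure divergence outside the coding part. How fragments that match both copies were assigned is not given in the sources used here. The split between the copies of a pair is therefore uncertain, and the sums of the α pair and of the β pair are the firmer values.

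Of the 10 genes, 5 were called higher in Gm31629-/- mice, namely Hba-a1, Hba-a2, Hbb-bt, Hmox1, and Hp, and 0 were called lower. Among all tested genes 18.4% were called higher and 4.64% lower. For these same 5 genes every Gm31629-/- mouse lay above every WT mouse, which held for 36.3% of all tested genes, and for 0 of the 10 did every Gm31629-/- mouse lie below, against 21.5%. The median log2 fold change was 2.36 over the 10 genes and 0.15 over all tested genes. Without Gm31629-/- mouse 1, 2 of the 10 were called higher, Hmox1 and Hp. The plot of each gene by library shows these 2 kinds of pattern, a wide scatter among the Gm31629-/- mice for globins and Alas2 and a tight step between genotypes for Hmox1 and Hp.

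**Figure D1:**
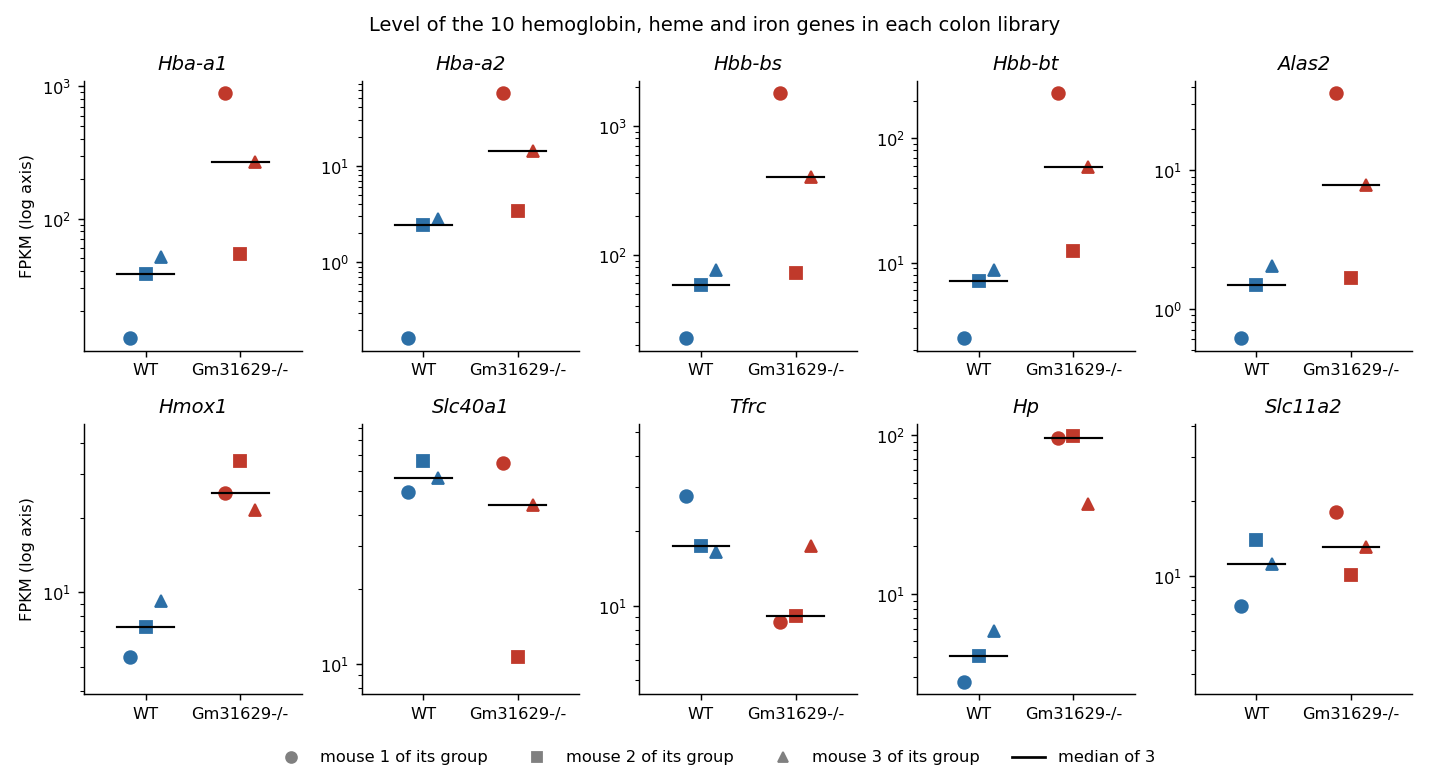
FPKM (log axis) of the 10 genes in each of 3 WT and 3 Gm31629-/- colon libraries, 1 point per mouse with the marker shape giving the mouse number within its group and a line at the group median. Globins and Alas2 span 53.9 to 887 FPKM (Hba-a1) or a similar ratio within Gm31629-/-. Groups do not overlap for Hmox1 and Hp, nor for Hba-a1, Hba-a2, and Hbb-bt. The lowest Gm31629-/- and highest WT values are 21.5 and 9.27 FPKM for Hmox1, 36.6 and 5.86 for Hp, and 53.9 and 51.0 for Hba-a1.

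Hbb-bs, a β chain of the C57BL/6 haplotype, was the most abundant globin in every library. It stood at 1795, 72.4, and 400.0 FPKM in Gm31629-/- mice 1 to 3 and at 22.4, 58.4, and 76.3 FPKM in WT mice 1 to 3. The groups overlapped, because Gm31629-/- mouse 2 lay below WT mouse 3. The mean was 756 ± 915 FPKM (SD, n = 3) in Gm31629-/- and 52.3 ± 27.4 (SD, n = 3) in WT, and the log2 fold change of 2.98 (SE 1.07) was not called (limma adjusted p = 0.0583).

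Hbb-bt, the other adult β chain, stood at 231, 12.4, and 58.8 FPKM in Gm31629-/- mice 1 to 3 and at 2.46, 7.11, and 8.70 FPKM in WT mice 1 to 3. The order of the mice within each group was that of Hbb-bs, and here the groups did not overlap. Its log2 fold change was 3.14 (SE 0.96, limma adjusted p = 0.0338), which was called, and it was 2.13 with an adjusted p of 0.0518 without Gm31629-/- mouse 1.

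Hba-a1, the main α chain, stood at 887, 53.9, and 269 FPKM in Gm31629-/- mice 1 to 3 and at 12.4, 38.0, and 51.0 FPKM in WT mice 1 to 3. The lowest Gm31629-/- mouse and the highest WT mouse were separated by 53.9 against 51.0 FPKM, a gap far smaller than the spread inside either group. The log2 fold change was 2.97 (SE 0.98, limma adjusted p = 0.0441). Without Gm31629-/- mouse 1 it was 2.02 and no longer called (adjusted p = 0.0881).

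Hba-a2, the second α copy, stood at 56.1, 3.41, and 14.3 FPKM in Gm31629-/- mice 1 to 3 and at 0.162, 2.41, and 2.79 FPKM in WT mice 1 to 3. The value of WT mouse 1 rests on 2 recovered fragments, under the 3 that a value of 0 would still allow. The log2 fold change was 2.67 (SE 0.90, limma adjusted p = 0.0480), and 1.73 (adjusted p = 0.0868) without Gm31629-/- mouse 1. Of the 6 fits that leave out 1 mouse, the calls of Hba-a1, Hba-a2, and Hbb-bt held in 1, the fit without Gm31629-/- mouse 2, in which Hbb-bs and Alas2 were also called. Hbb-bs had a log2 fold change of 4.16 in that fit (limma adjusted p = 0.0077) and Alas2 one of 2.98 (limma adjusted p = 0.0121).

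Summed over the 4 genes, globin RNA was 2968, 142, and 742 FPKM in Gm31629-/- mice 1 to 3 and 37.4, 106, and 139 FPKM in WT mice 1 to 3. The highest and lowest libraries differed 79.4-fold. Within Gm31629-/- the highest was 20.9 times the lowest and within WT 3.71 times, while the ratio of group means was 13.7 and dropped to 4.70 without Gm31629-/- mouse 1. Globins took 0.0106% to 0.852% of all FPKM in a library, or 538 to 42290 recovered fragments, so counting error is small beside the spread between mice. Gm31629-/- mouse 2 and WT mouse 3 were side by side, at 142 and 139 FPKM, although they differ in genotype.

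The proportions among the globins varied far less than their sum. The α to β ratio of summed FPKM lay between 0.466 and 0.676 in all 6 libraries. Hbb-bt made up 9.90% to 14.6% of β globin, and Hba-a2 made up 5.04% to 5.98% of α globin in 5 libraries and 1.29% in WT mouse 1, the library with 2 fragments of it. In a bulk library fewer cells of a type and less RNA per cell cannot be told apart, so a globin sum gives neither the number of red cells nor their content.

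**Figure D2:**
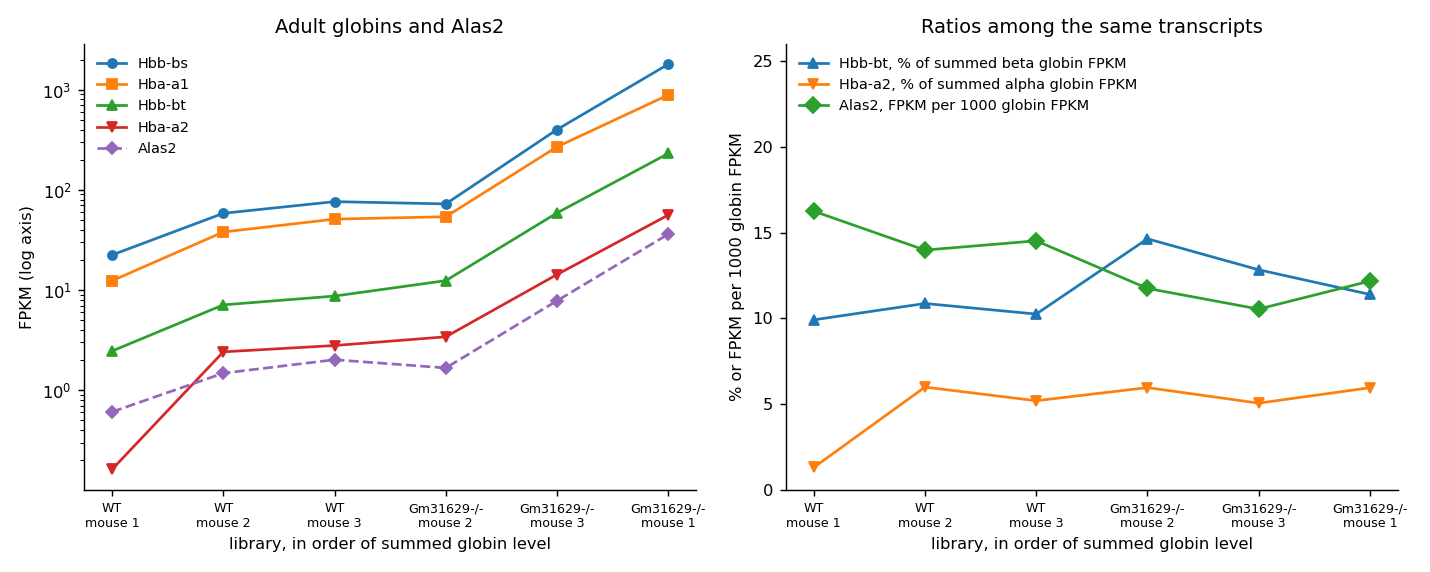
Left, FPKM (log axis) of the 4 adult globins and Alas2 in the 6 libraries, ordered by summed globin level. Right, Hbb-bt as a percentage of β globin, Hba-a2 as a percentage of α globin, and Alas2 in FPKM per 1000 globin FPKM in the same order. The lines on the left run nearly parallel over a 79.4-fold range of the sum, except for Hba-a2 in WT mouse 1. It falls further there, to 0.162 FPKM on 2 recovered fragments. On the right Alas2 stays between 10.5 and 16.2.

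Alas2 (ENSMUSG00000025270, chrX:150547375-150570638, plus strand) is the erythroid form of 5-aminolevulinate synthase, the first enzyme of heme synthesis. It stood at 36.1, 1.67, and 7.82 FPKM in Gm31629-/- mice 1 to 3 and at 0.607, 1.48, and 2.01 FPKM in WT mice 1 to 3. Its order across the mice was that of Hbb-bs, and the groups overlapped. The log2 fold change of 2.06 (SE 0.85) was not called (limma adjusted p = 0.0881), and it was 1.08 (adjusted p = 0.145) without Gm31629-/- mouse 1. Per 1000 FPKM of globin, Alas2 lay between 10.5 and 16.2 FPKM in all 6 libraries.

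The likeness of these patterns was measured as the root mean square difference of log2(FPKM + 1), centered on each gene, over the 6 libraries. Of all tested genes the 3 nearest to Hbb-bs were Hbb-bt at 0.179, Hba-a1 at 0.194, and Hba-a2 at 0.324, and the fourth was Alas2 at 0.587. Among the other members, Hp ranked 411 and Hmox1 ranked 966 by the same measure. Hbb-bs and Alas2 ran in the same order over all 6 mice, from WT mouse 1 at the bottom to Gm31629-/- mouse 1 at the top.

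Other erythroid genes were near the limit of detection. Of 25 names on an erythroid list 23 were listed in the table and 5 passed the filter on low values, and 1 was called higher, Dmtn, a cytoskeletal protein of the red cell membrane that is also made elsewhere (log2 fold change 1.60, limma adjusted p = 0.0037). Without Gm31629-/- mouse 1, Trim10 was called higher as well (1.49, limma adjusted p = 0.0435). Slc4a1, the anion exchanger of the red cell membrane, had 85, 3, and 15 fragments in Gm31629-/- mice 1 to 3 and 3, 1, and 14 in WT mice 1 to 3. It was highest in Gm31629-/- mouse 1, and 10 of the 23 listed genes were, beside 3585 of all 14657 tested genes. Some of the 10 rest on few fragments, such as Kel with 5 and Cldn13 with 3 in that mouse. Among erythroid transcription factors on the list, Klf1 had 9, 3, and 12 fragments against 2, 14, and 11 and overlapped between groups. Gata1, at 0, 2, and 3 against 1, 0, and 1, overlapped as well. Tal1, at 37, 87, and 98 against 2, 5, and 4, was higher in every Gm31629-/- mouse than in any WT mouse. The same held for Nfe2, at 13, 43, and 15 against 2, 2, and 4. All of these factors fell under the filter on low values and were not tested.

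Platelet transcripts, which enter tissue with blood, did not share 1 order of mice. Of 11 platelet genes 3 were tested and 1 was called, Pf4, a chemokine of platelet granules that some macrophages also make. Pf4 stood at 8.52, 21.6, and 12.4 FPKM in Gm31629-/- mice 1 to 3 and at 1.57, 1.85, and 1.70 FPKM in WT mice 1 to 3 (log2 fold change 2.40, SE 0.30, limma adjusted p = 0.0014). It was highest in Gm31629-/- mouse 2, the one with the least globin. Ppbp, a second granule chemokine, had 17, 18, and 9 fragments against 1, 3, and 0. Gp1bb, a subunit of the platelet receptor for von Willebrand factor, ran in the order of the globins within Gm31629-/-, at 9.36, 0.979, and 2.23 FPKM, and stood at 5.55, 8.92, and 7.66 FPKM in WT mice 1 to 3. Its log2 fold change of -1.03 was not called (limma adjusted p = 0.174), and without Gm31629-/- mouse 1 it was -1.71 and called lower (adjusted p = 0.0051). Gp9, at 8, 1, and 4 fragments against 4, 6, and 6, and Treml1, at 9, 1, and 4 against 0, 0, and 0, ran in the same order within Gm31629-/-.

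Of 10 embryonic, minor, and tissue globins 5 were listed and 2 tested, and both were called higher. Cygb, cytoglobin of fibroblast-like cells, stood at 20.5, 31.2, and 19.1 FPKM in Gm31629-/- mice and at 1.04, 1.91, and 1.51 FPKM in WT mice (log2 fold change 3.29, SE 0.23, limma adjusted p = 2.3e-04). Ngb, neuroglobin, stood at 3.97, 2.58, and 1.99 FPKM against 0, 0, and 0.0309 (log2 fold change 1.90, limma adjusted p = 8.4e-04). Mb, myoglobin, had 0 fragments in every Gm31629-/- mouse and 2, 1, and 1 in WT mice. Neither Cygb nor Ngb followed the order of the adult globins.

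Because the 4 adult globins and Alas2 moved together across mice, their promoters were searched for the letters bound by known erythroid and general factors. The RefSeq table on GRCm38.p6 held a start site for 6 of the 10 genes (the 4 globins, Alas2, and Tfrc), and the 110 bases before it were read. The letters searched on either strand were CACCC, then the box CCAAT, then the box TATAA, and for GATA factors AGATA, or alternatively TGATA. Hbb-bs and Hbb-bt hold CACCC and CCAAT in the 30 bases from -97 to -68 before the start site, while Alas2 holds a pair of GATA matches in the 30 bases from -90 to -61, and these stretches are shown 5′ to 3′ on the gene's strand with the matches in capitals. They lie at chr7:103827996-103828025, chr7:103813991-103814020, and chrX:150547327-150547356.
Hbb-bs: agagccaCACCCtggtaagggCCAATctgc
Hbb-bt: cagggtaaCACCCtggcATTGGCCAATctg
Alas2: cttttTATCTttagcagaggcctgAGATAc

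In Hbb-bs, CACCC began at -90 and CCAAT at -76, followed by TATAA at -29. In Hba-a1 the order was reversed, with CCAAT at -88, CACCC at -60, and TATAA at -27, and Hba-a1 and Hba-a2 shared an identical run of 107 of the 110 bases. Alas2 held neither CCAAT nor TATAA, and its CACCC matches, on the opposite strand, began at -40, -35, and -30. In 32851 promoters of the same length, CACCC occurred in 29.6%, CCAAT in 20.2%, GATA in 18.9%, and TATAA in 10.9%. None of the 4 globin windows held a GATA match, and Tfrc had 1 CACCC match in 1 of its 2 start sites and none of the other letters.

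Heme synthesis as a whole did not follow Alas2. Of 14 genes of the pathway 13 were tested, 0 were called higher, and 1 was called lower, with a median log2 fold change of -0.57. That median was -0.73 when libraries were scaled by median ratio and turned to 0.12 when they were scaled to epithelial markers. The gene called lower was Alas1, the 5-aminolevulinate synthase of nonerythroid cells, which stood at 20.5, 36.9, and 24.7 FPKM in Gm31629-/- mice 1 to 3 and at 70.0, 79.8, and 68.5 FPKM in WT mice 1 to 3. For Alas1 the log2 fold change was -1.42 (SE 0.22, limma adjusted p = 0.0029), and it kept its sign under both scalings. Per length, Alas1 was the more abundant synthase in each WT mouse and the less abundant one in Gm31629-/- mouse 1. Fech, which inserts the iron, was at 15.1 ± 3.95 FPKM (SD, n = 3) in Gm31629-/- and 20.1 ± 1.34 (SD, n = 3) in WT and was not called (limma adjusted p = 0.117).

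Hmox1 (ENSMUSG00000005413, chr8:75093621-75100589, plus strand), the inducible heme oxygenase, stood at 25.3, 33.8, and 21.5 FPKM in Gm31629-/- mice 1 to 3 and at 5.50, 7.26, and 9.27 FPKM in WT mice 1 to 3. Every Gm31629-/- mouse lay above every WT mouse. The means were 26.8 ± 6.30 and 7.34 ± 1.89 FPKM (SD, n = 3 each), a ratio of 3.65, and the log2 fold change was 1.74 (SE 0.23, limma adjusted p = 0.0016). Hmox1 was called in all 6 fits that leave out 1 mouse, with adjusted p values of 0.0038 to 0.0091.

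The order of the mice for Hmox1 was not that of the globins. It was highest in Gm31629-/- mouse 2, which had the least globin RNA of its group, and per 1000 FPKM of globin it ranged from 8.51 FPKM in Gm31629-/- mouse 1 to 238 in Gm31629-/- mouse 2. The tested genes most like it were Gm14597 at 0.128, Lpxn at 0.130, and Mapk12 at 0.136. Its constitutive relative Hmox2 was at 11.9 ± 2.16 FPKM in Gm31629-/- and 11.7 ± 1.16 in WT (SD, n = 3 each), with a log2 fold change of 0.01 (SE 0.17, limma adjusted p = 0.963). Blvrb, a biliverdin reductase acting on the next step, had a log2 fold change of -0.27 (SE 0.19) and was not called (limma adjusted p = 0.278). Of 7 tested genes of heme breakdown and transport, Hmox1 was the 1 called, and the list's median log2 fold change was 0.01.

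The regulators of Hmox1 were also measured. Of 11 genes of the NRF2 and BACH1 axis 0 were called higher and 1 was called lower. The latter was Nqo1, a quinone reductase and a standard NRF2 target, at 3.85, 3.70, and 2.73 FPKM in Gm31629-/- mice 1 to 3 and 29.6, 41.3, and 45.3 FPKM in WT mice 1 to 3 (log2 fold change -3.15, SE 0.20, limma adjusted p = 2.0e-04). Hmox1 and Nqo1 changed in opposite directions, under every scaling tried. Nfe2l2, which encodes NRF2, had a log2 fold change of -0.72 and an adjusted p of 0.0167 in limma, under the fold threshold. Bach1, a heme-binding repressor of Hmox1, was at 13.5 ± 4.45 FPKM in Gm31629-/- and 7.93 ± 1.11 in WT (SD, n = 3 each) and was not called (limma adjusted p = 0.0737).

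Hp (ENSMUSG00000031722, chr8:109575128-109579172, minus strand) encodes haptoglobin, an acute-phase protein of liver that neutrophils and adipocytes also make. It stood at 96.1, 97.6, and 36.6 FPKM in Gm31629-/- mice 1 to 3 and at 2.79, 4.08, and 5.86 FPKM in WT mice 1 to 3, with no overlap. The means were 76.7 ± 34.8 and 4.25 ± 1.54 FPKM (SD, n = 3 each), a ratio of 18.1. The log2 fold change of Hp, 3.80 (SE 0.41, limma adjusted p = 7.6e-04), was the largest of the 10, and Hp was called in all 6 fits that leave out 1 mouse.

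Hp is 1 of 8 genes on a list of proteins that bind hemoglobin, heme, or iron in plasma and secretions. Of these 6 were tested and 4 were called higher, which were Hp, Lcn2, Ltf, and Cd163. Lcn2, which sequesters bacterial iron carriers, stood at 41.6, 31.7, and 17.7 FPKM against 1.67, 4.60, and 2.60 (log2 fold change 2.98, limma adjusted p = 0.0013). Ltf, lactoferrin of neutrophil granules and mucosal secretions, had a log2 fold change of 1.98 (limma adjusted p = 0.0033). Cd163, the macrophage receptor for haptoglobin bound to hemoglobin, stood at 2.53, 1.99, and 0.768 FPKM against 0.00990, 0.0407, and 0.0390 (log2 fold change 1.37, limma adjusted p = 0.0062). Hpx, hemopexin, had 9, 8, and 5 fragments against 2, 0, and 0, and Trf, transferrin, had 2 in each Gm31629-/- mouse and 0 in each WT mouse, both too few to be tested.

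**Figure D3:**
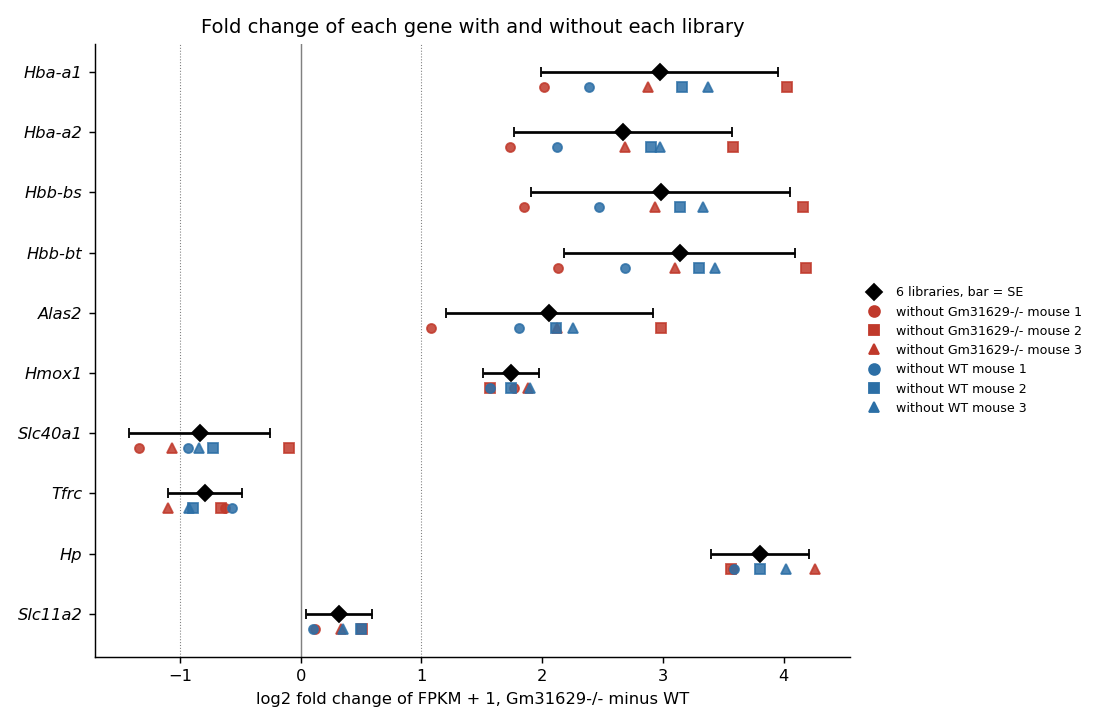
Log2 fold change of FPKM + 1, Gm31629-/- minus WT, of the 10 genes. Black diamonds with bars give the value and SE from 6 libraries, colored symbols give the value without 1 mouse, and dotted lines mark the fold threshold of 1 in each direction. Values without 1 mouse range from 1.57 to 1.90 for Hmox1 and from 2.02 to 4.03 for Hba-a1.

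Slc40a1, Tfrc, and Alas2 carry a known hairpin of the RNA, the iron responsive element, through which IRP1 (Aco1) and IRP2 (Ireb2) act when iron is scarce. In an untranslated leader it holds back translation and in the 3′ untranslated region of Tfrc it protects the RNA from decay, so it acts on the RNA level of Tfrc and on the translation of the others. A pattern of C, 5 bases, CAGTG, a base other than G, and 5 bases that pair with the first 5 was searched in the untranslated regions of GENCODE M21 transcripts. It was found in 3 of the 10 genes, against 0.562% of 21877 protein coding genes. The search requires all 5 positions of the stem to pair. A gene without a match, Slc11a2 among them, may therefore still carry an element. The matches are shown as 27 bases 5′ to 3′ with the loop in capitals. Alas2 (chrX:150547459-150547485) and Slc40a1 (chr1:45925466-45925492) have a match in the leader. Tfrc has 4 matches in the 3′ untranslated region, of which the first is printed (chr16:32631220-32631246).
Alas2: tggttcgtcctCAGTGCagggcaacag
Slc40a1: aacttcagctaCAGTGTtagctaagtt
Tfrc: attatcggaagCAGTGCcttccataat

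Tfrc (ENSMUSG00000022797, chr16:32608920-32632794, plus strand) stood at 8.56, 9.06, and 17.4 FPKM in Gm31629-/- mice 1 to 3 and at 27.7, 17.4, and 16.4 FPKM in WT mice 1 to 3. The groups overlapped through Gm31629-/- mouse 3. Its log2 fold change was -0.79 (SE 0.31) and was not called (limma adjusted p = 0.0728). Without Gm31629-/- mouse 3 it was -1.10 and was called lower (adjusted p = 0.0208). The tested genes most like Tfrc were Rpl10-ps1 at 0.136, Isoc2b at 0.148, and Gm13340 at 0.162.

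Slc40a1 (ENSMUSG00000025993, chr1:45908068-45926523, minus strand), the exporter of epithelial cells and macrophages, stood at 64.5, 10.6, and 43.9 FPKM in Gm31629-/- mice 1 to 3 and at 49.5, 66.2, and 56.3 FPKM in WT mice 1 to 3. Gm31629-/- mouse 2 was low and mouse 1 lay within the WT range. The log2 fold change of -0.84 (SE 0.58) was not called (limma adjusted p = 0.277) and was -0.10 without Gm31629-/- mouse 2. The tested genes most like it were Maoa at 0.0725, Fahd1 at 0.122, and Guca2a at 0.145. Slc40a1 was lowest in the mouse in which Hmox1 and the summed macrophage markers were highest.

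Slc11a2 (ENSMUSG00000023030, chr15:100387898-100425072, minus strand) stood at 18.1, 10.1, and 13.1 FPKM in Gm31629-/- mice 1 to 3 and at 7.52, 13.9, and 11.1 FPKM in WT mice 1 to 3. The groups overlapped, and the log2 fold change of 0.32 (SE 0.27) was not called (limma adjusted p = 0.372). Without 1 mouse it ranged from 0.10 to 0.51, and with libraries scaled to epithelial markers it was 0.98, just under the fold threshold (limma adjusted p = 0.0149).

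Of 11 tested genes of cellular iron uptake 3 were called higher and 1 lower. The 3 were Slc11a1, the phagosomal iron transporter of macrophages and neutrophils, at 3.83, 14.1, and 5.20 FPKM against 0.175, 0.465, and 0.517 (log2 fold change 2.48, limma adjusted p = 0.0035), Scara5, a receptor for ferritin (2.13, adjusted p = 8.6e-04), and Steap4, a metalloreductase (1.21, adjusted p = 0.0221). The call of Steap4 held in 3 of the 6 fits that leave out 1 mouse, with log2 fold changes down to 0.83 and adjusted p values up to 0.0743. Steap3, the endosomal ferrireductase that works beside Tfrc, was called lower, at 2.55, 2.88, and 3.24 FPKM against 8.47, 7.14, and 8.53 (log2 fold change -1.22, limma adjusted p = 0.0014). Cybrd1, a duodenal ferrireductase, had a log2 fold change of 0.94, under the threshold (limma adjusted p = 0.0156). Without Gm31629-/- mouse 1, 5 genes of the list were called higher, with Cybrd1 at 1.18 (limma adjusted p = 0.0016) and Steap2 at 1.08 (limma adjusted p = 0.0169) added to the 3. The metal transporter Slc39a14 was not called (0.28, limma adjusted p = 0.404).

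Iron storage and export were led by ferritin. Fth1, the heavy chain, was at 4196 ± 420 FPKM in Gm31629-/- and 3455 ± 624 in WT (SD, n = 3 each) and was not called (log2 fold change 0.29, limma adjusted p = 0.333). Ftl1, the light chain, had a log2 fold change of 0.11 (limma adjusted p = 0.636), which turned negative under median ratio scaling. Of 8 tested genes 1 was called, Cp, ceruloplasmin, the ferroxidase that works with ferroportin, at 4.35, 14.9, and 9.15 FPKM against 0.170, 0.615, and 0.217 (log2 fold change 2.85, SE 0.38, limma adjusted p = 0.0017). Heph, the ferroxidase of enterocytes, had a log2 fold change of -0.29 and was not called (limma adjusted p = 0.281).

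Of 9 tested genes of iron sensing and the hepcidin axis 3 were called higher and 2 lower. Bmp2 and Bmp6, ligands made by endothelium that drive hepcidin in liver, had log2 fold changes of 2.31 (limma adjusted p = 2.3e-04) and 1.79 (adjusted p = 0.0056), and Hif1a, an oxygen-sensitive factor, had 2.25 (adjusted p = 0.0036). Aco1, which is IRP1 when it lacks its iron-sulfur cluster, was at 13.6 ± 1.62 FPKM in Gm31629-/- and 33.6 ± 3.94 in WT (SD, n = 3 each), with a log2 fold change of -1.24 (SE 0.16, limma adjusted p = 0.0013), and Erfe, erythroferrone, had -1.14 (adjusted p = 0.0047). Ireb2 was not called (0.41, limma adjusted p = 0.182). Hamp, hepcidin itself, had 2, 2, and 4 fragments against 0, 0, and 3.

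Of 12 genes of mitochondrial iron and iron-sulfur clusters 0 were called by limma in either direction, and their median log2 fold change was -0.08. Over all 80 tested genes of these lists other than the 10, 14 were called higher and 5 lower, or 17.5% and 6.25%, near the 18.4% and 4.64% of all tested genes. Their median was 0.02 beside 0.15 for all tested genes. The plot of the lists shows the globins and the binding proteins to the right, and single genes far from the center in most other lists.

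**Figure D4:**
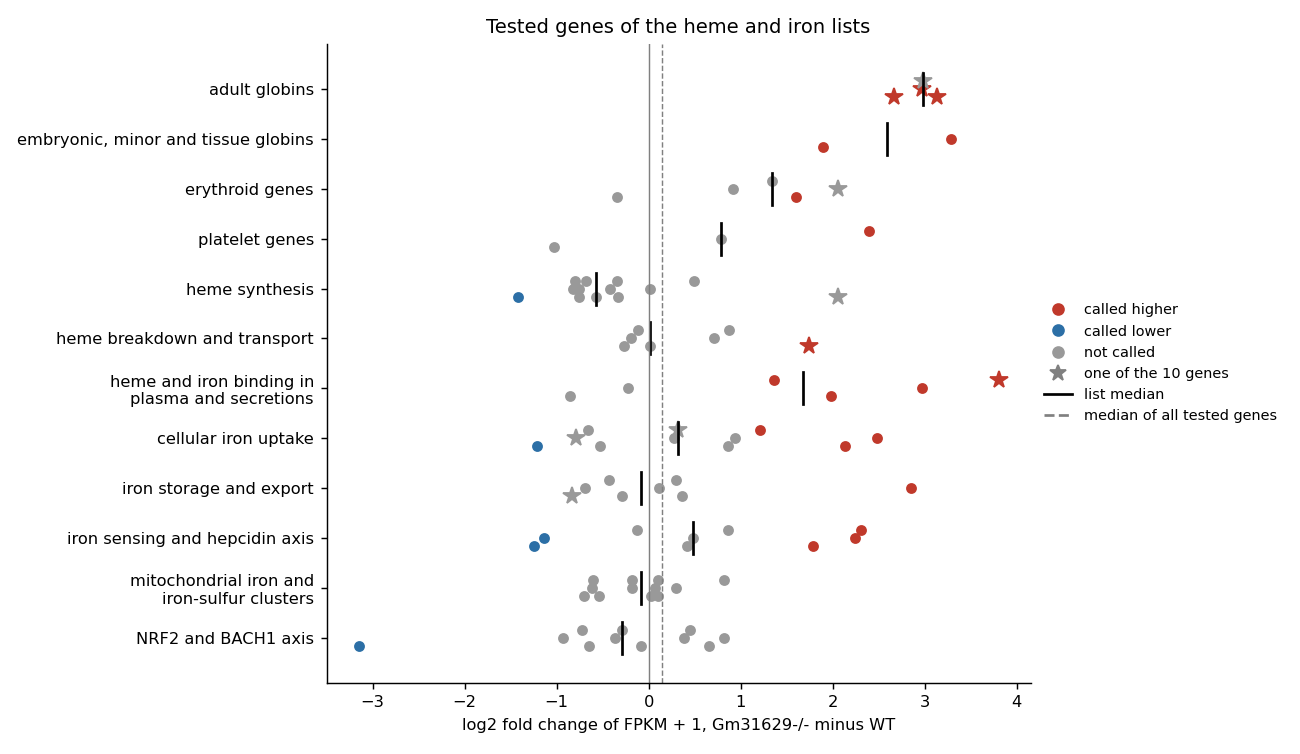
Log2 fold change of FPKM + 1, Gm31629-/- minus WT, of every tested gene on each list, with red for genes called higher, blue for genes called lower, and gray for the rest. Stars are the 10 genes described here, short black lines are list medians, and the dashed line is the median of all tested genes, 0.15. The lists of heme synthesis, heme breakdown, iron uptake, storage, sensing, mitochondrial iron, and NRF2 have medians between -0.57 and 0.49, and the adult globins have one of 2.98.

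Levels of cell type markers in the libraries also differed between genotypes. Summed FPKM of 10 smooth muscle markers was 1165 to 1794 in Gm31629-/- mice and 21.7 to 38.3 in WT mice, 9 of the 10 were called higher, and Acta2 and Actg2, its most abundant, had log2 fold changes of 6.04 and 6.79. Summed macrophage markers were at 383 to 815 FPKM against 73.2 to 83.3, with 8 of 9 tested called higher, and the most abundant, C1qa and C1qb, had log2 fold changes of 3.49 and 3.67. Summed neutrophil markers, a list that includes Lcn2 and Ltf, were at 587 to 1061 FPKM against 76.0 to 134, with 10 of 11 called higher, and the most abundant, Ly6g and S100a9, had log2 fold changes of 2.65 and 4.16. In the fit without Gm31629-/- mouse 1, 9 neutrophil markers were called higher.

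Endothelial markers summed to 99.5 to 287 FPKM in Gm31629-/- mice and to 8.73 to 20.05 in WT mice, with 10 of 10 called higher, and the most abundant, Plvap and Pecam1, had log2 fold changes of 3.67 and 3.20. Adipocyte markers summed to 149 to 525 FPKM against 13.6 to 57.7, with 6 of 7 tested called higher, and the most abundant, Cfd and Cidec, had log2 fold changes of 4.33 and 1.07. Epithelial markers, before any scaling to them, summed to 6247 to 7510 FPKM against 10648 to 11520, with 4 of 12 called lower and means of Krt8 and Krt19, the most abundant, of 2042 and 1042 FPKM against 4198 and 2068. The number of epithelial markers called lower was 2 in the fit without Gm31629-/- mouse 1. Every marker list was therefore shifted, and its part in the levels of Hmox1, Hp, Cd163, Slc11a1, Cp, Cygb, and Alas1 was not tested. With libraries scaled to the epithelial markers, the log2 fold change was -0.72 for Alas1, -0.63 for Steap3, -0.56 for Aco1, and -0.69 for Erfe, under the fold threshold. Nqo1, at -2.52, was still called lower in that fit (limma adjusted p = 2.0e-04).

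Within Gm31629-/- the order of the mice by globin level was that of none of the 6 marker lists. Gm31629-/- mouse 2 had the least globin of its group and the highest summed macrophage, endothelial, and adipocyte markers, and WT mouse 1 had the least globin of all. Summed smooth muscle markers were highest in Gm31629-/- mouse 1, at 1794 FPKM, but in Gm31629-/- mouse 3, with 742 FPKM of globin, they were the lowest of the group.

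**Figure D5:**
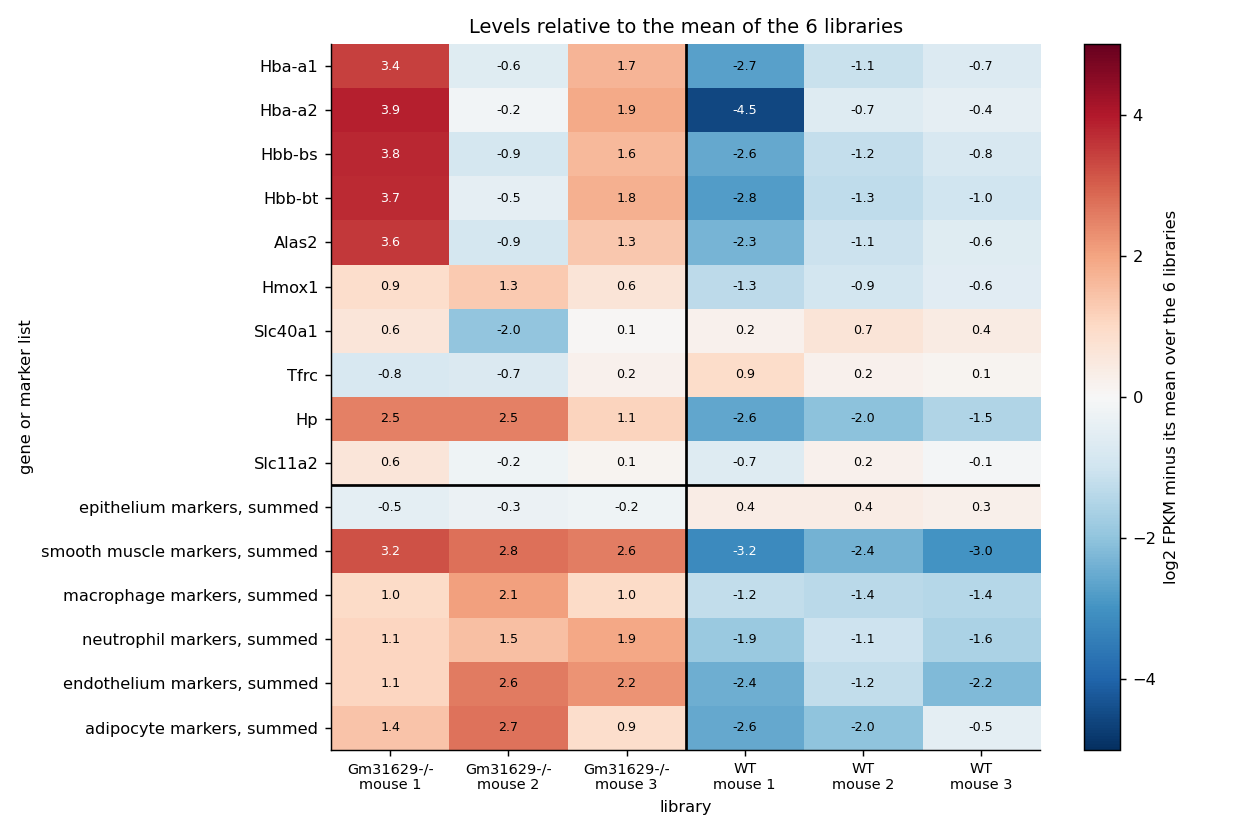
Log2 FPKM minus its mean over the 6 libraries, for the 10 genes and for the summed markers of 6 cell types, with red above and blue below the mean. Gm31629-/- mouse 1 is 3.43 to 3.88 above the mean for the 4 globins, while Hmox1, Hp, and the nonepithelial markers are above the mean in all 3 Gm31629-/- mice.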

How the data were processed

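The authors deposited 1 table of FPKM values, with fragments divided by gene length and by library depth before deposit, from TruSeq libraries of total RNA. The submitters' processing notes name HISAT2 2.1.0, HTSeq 0.6.0, and GRCm38 without their settings. Samples were grouped by the genotype in their labels. Symbols and exon lengths came from GENCODE M21 (GRCm38), which matched 27488 of 27546 identifiers. Whole fragments were recovered from the size of 1 fragment: 96.3% to 97.3% of values of up to 20 fragments lay within 0.1 of a whole number. A value of 0 allows up to 3 fragments, counting error only.

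Genotypes were compared on log2(FPKM + 1) by moderated linear models with a mean-variance trend (limma 3.58.1, R 4.3.3). The 14657 genes whose mean FPKM reached 0.5 were tested and p-values were adjusted over all of them. A pseudocount of 1 understates the fold change of low genes. The study used DEGseq with the same fold threshold, which needs counts. The labels call the WT mice littermates without giving litters, and p-values measure the spread between these mice. Replicates differed by more than counting noise.

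The 10 genes, the 12 pathway lists, and the 6 marker lists were chosen with earlier results of these data known, so no list was tested. Named genes were the 10, up to 3 called higher and 3 called lower per list by size of change, a set of well-known pathway genes named whatever their values (1 is not reported here), and the 2 most abundant genes of each marker list. Gata1, Klf1, Tal1, Nfe2, Trim10, Gp1bb, Gp9, Treml1, Steap2, and the sex-linked genes were named after their values were seen. Sequences were read from GENCODE M21 and the RefSeq promoter table (GRCm38.p6). Alternatives were another pseudocount (0.1), another minimum mean FPKM (none, or 5), rescaled libraries (equal sums, median ratio, or epithelial markers), no trend, a replicate block, removal of each mouse, limma treat, no fold threshold, and voom on the recovered fragments. Figures were drawn with matplotlib 3.10.9.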

Additional observations from a re-analysis of the deposited data

How the results depend on the processing

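Hmox1 and Hp kept their call and direction under every scaling, filter, and variance model, in the block, and without any 1 mouse, but with limma treat Hp alone was called. None of the 10 genes reversed under the settings run. Without 1 mouse the log2 fold change ranged from 1.57 to 1.90 for Hmox1 and from 3.57 to 4.26 for Hp. The globin calls did not hold. Hba-a1 lost its call with no filter and with a mean FPKM of at least 5 (2.97 in both, limma adjusted p = 0.0888 and 0.0503), under median ratio scaling (2.81, 0.0548), and with voom, an alternative chosen after seeing the data (3.02, 0.0506). Hba-a2 lost it under the same settings (2.67, 2.67, 2.55, and 3.65), and Hbb-bt with no filter (3.14) and with voom (3.36). Hbb-bs and Alas2 gained a call under epithelial scaling (3.69 and 2.54, limma adjusted p = 0.0158 and 0.0304). Leaving out 1 mouse gave 2.02 to 4.03 for Hba-a1, 1.73 to 3.58 for Hba-a2, 1.85 to 4.16 for Hbb-bs, 2.13 to 4.18 for Hbb-bt, 1.08 to 2.98 for Alas2, and -1.10 to -0.57 for Tfrc.

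Members called higher, 5 in the report, numbered 2 with no filter, 3 with a mean FPKM of at least 5, 3 under median ratio, 1, Hp, with limma treat (a test against the fold threshold of 1), 2 with voom, and 2 to 7 without 1 mouse (7 without Gm31629-/- mouse 2). Members called lower numbered 0 to 1 without 1 mouse. Of all tested genes 2704 were called higher and 680 lower. Higher calls were 956 at a mean FPKM of at least 5, 4898 under epithelial scaling, 795 with treat, and 4238 with no fold threshold, and lower calls were 219 under epithelial scaling, 117 with treat, and 2138 with no fold threshold. The share of calls that were higher was 79.9%, against 66.0% at a mean FPKM of at least 5, 70.5% under median ratio, 95.7% under epithelial scaling, and 66.5% with no fold threshold. The median log2 fold change of all genes moved from 0.15 to 0.02 under median ratio and to 0.69 under epithelial scaling, a shift that each gene's value shares. The cause of these changes was not tested.

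The replicate numbers share only a number: the correlation of deviations between mice of the same number was 0.0358, -0.108, and 0.0141. With the replicate block, 2 of the 10 genes were called higher, and Hba-a1 (2.97, limma adjusted p = 0.0685), Hba-a2 (2.67, 0.0799), and Hbb-bt (3.14, 0.0533) were not called. The block changed no other call among the 10. Counts of calls on the pathway lists stayed within 1.5 times of the reported count in 270 recalculations and moved further in 70. A reported count of 0 that stayed at 0 was scored among the 270, and one that left 0 among the 70. The 270 therefore include recalculations in which no gene was called before or after.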
